A study of Mus musculus with 12 samples.

Results

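Calcineurin is a phosphatase that is switched on by calcium and calmodulin. It is built from a catalytic subunit (Ppp3ca, Ppp3cb or Ppp3cc) and a regulatory subunit (Ppp3r1), and it removes phosphates from the NFAT transcription factors Nfatc1 to Nfatc4, which then move into the nucleus. Rcan1 and Rcan2 bind calcineurin and restrain it, and a short form of Rcan1 is itself switched on by calcineurin and NFAT, so that its RNA is widely used as a readout of the pathway in the heart. Nfat5 shares the DNA-binding fold of the family but lacks the calcineurin-binding region and is best known for its response to osmotic stress. The 10 genes described here, Rcan1, Rcan2, Ppp3ca, Ppp3cb, Ppp3r1, Nfatc1, Nfatc2, Nfatc3, Nfatc4 and Nfat5, were chosen by name as the core of this pathway. They are 10 of the 13552 genes in the deposited table, and all 10 were among the 11240 genes tested, those with 1 RPKM or above in 3 or more hearts.

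RNA was sequenced from the hearts of 12 mice, 3 in each of 4 groups. Wild-type (WT) mice and mice labelled Bcl-xL S14A KI mutant (KI), whose codon 14 of Bcl-xL encodes alanine in place of serine, both of strain C57BL/6 in the labels (C57BL/6 J in the study's methods), underwent either transverse aortic constriction (TAC), which narrows the aorta and loads the left ventricle with pressure, or a sham operation without the constriction. Hearts were taken after 9 h. Per the study's methods the mice were male and aged 8 to 10 weeks at surgery. The labels give no zygosity. The paper states, before it describes the RNA sequencing, that homozygous knock-in mice were used from there on. The KI line came from several embryonic stem cell clones, carries the change in every cell, was crossed to a Cre line to remove the selection cassette and was backcrossed for more than 8 generations, whereas WT mice were bought from a supplier, so the groups are not stated to be littermates. The comparisons ask how the pathway's RNAs responded to 9 h of pressure load in each genotype, and whether the genotypes differed under load or after the sham operation. No pool of animals is stated, each library is 1 mouse, and mice are named by the numbers in their labels.

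Levels are given in RPKM, a read count divided by the exon length of the gene and by the depth of the heart, so that levels can be compared between genes. Differences were tested in limma, a linear model fitted to all genes tested, on log2(RPKM + 1), and a gene passed where its Benjamini-Hochberg adjusted p was under 0.05. Depth ranged from 23650178 to 32455177 reads on genes per heart, and the TAC groups did not overlap in it (25715284 to 29608546 in WT, 30298169 to 31676884 in KI). Each of the 10 genes had at least 318 reads in every heart (the lowest for Nfatc4) and at most 22481 (Rcan1). Cardiomyocyte markers were high in all hearts, with a sum over 8 genes of 12110 to 23230 RPKM, and the 8 genes included Myh6, Tnnt2 and Ttn. Actc1 made up much of this sum. The median log2 change of the 8 with TAC was −0.40 in WT hearts, with 1 of 8 lower in the test, and −0.16 in KI hearts, also with 1 of 8 lower. Summed red blood cell markers (4 genes) were 139 to 165 RPKM in WT sham, 71.7 to 110 in WT TAC, 128 to 234 in KI sham and 93.9 to 246 in KI TAC hearts, and none of the 4 passed the test. Summed leukocyte markers (7 of 9 listed genes in the table) were 65.5 to 111 RPKM in WT sham, 137 to 195 in WT TAC, 71.2 to 96.4 in KI sham and 83.7 to 105 in KI TAC hearts, and the lymphocyte markers Cd3e and Cd79a were not analysed here. Summed fibroblast markers (6 genes) reached 609.6 RPKM in 1 WT TAC heart and lay between 92.2 and 221 RPKM in the KI hearts and between 113 and 171 RPKM in the WT sham hearts. Endothelial markers (7 genes) held a narrower range, 249 to 342 RPKM over all hearts, and none of the 7 passed the test in any comparison. In bulk tissue, fewer cells of a type and less RNA per cell cannot be told apart. One further property varied between libraries. The 1013 genes with at least 10000 bases of exon deviated from their mean over hearts by a median of −0.227 on the log2 scale in KI sham 2 and by 0.246 in WT TAC 10. The median was negative in all 3 KI TAC hearts (−0.176, −0.109 and −0.072 in KI TAC 5, 6 and 7) and positive in all 3 WT TAC hearts (0.068, 0.090 and 0.246 in WT TAC 7, 9 and 10). Over all genes the same median was −0.210, −0.083 and 0.047 in KI TAC 5, 6 and 7 and 0.036, −0.045 and 0.13 in WT TAC 7, 9 and 10. Over the 1760 genes under 2000 bases it was −0.117, 0.051 and 0.166 in these KI TAC hearts and −0.098, −0.197 and 0.004 in these WT TAC hearts. Long genes thus lay below short genes in each KI TAC heart and above them in each WT TAC heart. Against all genes, long genes lay lower in KI TAC 6 and 7 but not in KI TAC 5. Of the 10 genes, Nfatc2, Nfatc3 and Nfat5 belong to this long class.

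The order of the levels differed between sham and TAC hearts at its top. Among sham hearts Rcan2 was the most abundant of the 10 genes (mean 78.7 RPKM in WT and 74.7 in KI), followed by Rcan1 (23.7 and 22.4) and Ppp3ca (13 and 14.9), and the ranges of these 3 genes lay apart from each other. Under TAC Rcan1 took the first place, at 122 RPKM in WT, where its range overlapped that of Rcan2, and at 201 RPKM in KI, where it did not. At the bottom of the order, in both sham groups and in WT TAC, were Nfatc3, Nfatc4 and Nfat5, with means of 2.27 to 4.27 RPKM. In KI TAC hearts the lowest were Nfatc2 (3.07), Nfatc4 (2.28) and Nfatc3 (1.97), below Nfat5 (4.04). Within each sham group Nfatc4 lay apart from Ppp3cb above it, while Nfatc4 overlapped Nfatc3 and Nfatc3 overlapped Nfat5.

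Rcan1 (ENSMUSG00000022951; GRCm38 chr16:92391953-92470867, minus strand) has 2 annotated promoters in RefSeq, which is why both are shown, each from 250 bases before to 50 bases after its start, read 5′ to 3′ along the gene. The capitals mark GGAAA on either strand (read as TTTCC on the other strand), the core letters that NFAT proteins bind. The upstream window holds no match. The downstream window holds 3, which begin at positions −227, −193 and −163 relative to the start. The annotated transcript starts in the 2 windows lie 66069 bases apart. The downstream window lies in an intron of the transcripts that start in the upstream window, and a transcript starts inside it, at position 92400077.
Rcan1 upstream start, GRCm38.p6 chr16:92466120-92466419, minus strand: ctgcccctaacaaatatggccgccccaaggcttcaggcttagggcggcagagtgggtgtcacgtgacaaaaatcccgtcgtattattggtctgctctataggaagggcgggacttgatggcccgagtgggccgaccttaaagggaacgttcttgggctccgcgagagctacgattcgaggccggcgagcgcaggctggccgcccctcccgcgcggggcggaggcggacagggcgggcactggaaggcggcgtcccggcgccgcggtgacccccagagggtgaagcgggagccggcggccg
Rcan1 downstream start, GRCm38.p6 chr16:92400029-92400328, minus strand: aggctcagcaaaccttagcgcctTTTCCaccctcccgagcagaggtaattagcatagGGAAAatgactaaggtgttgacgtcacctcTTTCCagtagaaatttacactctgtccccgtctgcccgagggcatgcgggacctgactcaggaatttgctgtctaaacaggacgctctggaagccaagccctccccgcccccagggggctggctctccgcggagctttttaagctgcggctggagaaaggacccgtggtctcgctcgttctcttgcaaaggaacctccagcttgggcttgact
A match is a description of letters, not a site of binding. Of 32851 promoter windows of 300 bases in the table, 61.3% hold at least 1 match and 9.42% at least 3. Over the 13 windows listed for 8 of the 10 genes (Nfatc1 and Ppp3ca were not matched), 8 hold at least 1, which is 61.5%, and 4 hold at least 3, which is 30.8%. These 4 belong to Rcan1, Nfatc2, Ppp3cb and Nfatc4. The annotation has 7 Rcan1 transcripts, some of which start outside both windows, and the gene-level value of Rcan1 does not separate them.

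Rcan1 RNA rose in both genotypes. Its levels were 34.3, 16.0 and 20.9 RPKM in WT sham 1, 2 and 3, and 141, 172 and 53.9 RPKM in WT TAC 7, 9 and 10. KI sham hearts 1, 2 and 3 had 24.3, 22.6 and 20.4 RPKM, and KI TAC 5, 6 and 7 had 233, 230 and 141 RPKM. Each TAC heart lay above each sham heart of its genotype, and the lowest TAC value was that of WT TAC 10. The ratio of the mean levels was 5.15 in WT and 8.98 in KI hearts. On the log2(RPKM + 1) scale the change was 2.23 ± 0.38 in WT (SE from the fit of all 12 hearts, 3 against 3). Its Benjamini-Hochberg adjusted p was 0.00270 in limma over all genes tested. In KI hearts the change was 3.08 ± 0.38 with an adjusted p of 0.000174 from the same fit. Rcan1 was the only one of the 10 genes that passed the test in WT TAC against WT sham (1 of 10, against 11.6% of all genes tested), and 2 of 10, Rcan1 and Nfat5, had TAC values that did not overlap the sham values (against 35.1% of all genes).

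**Figure D1:**
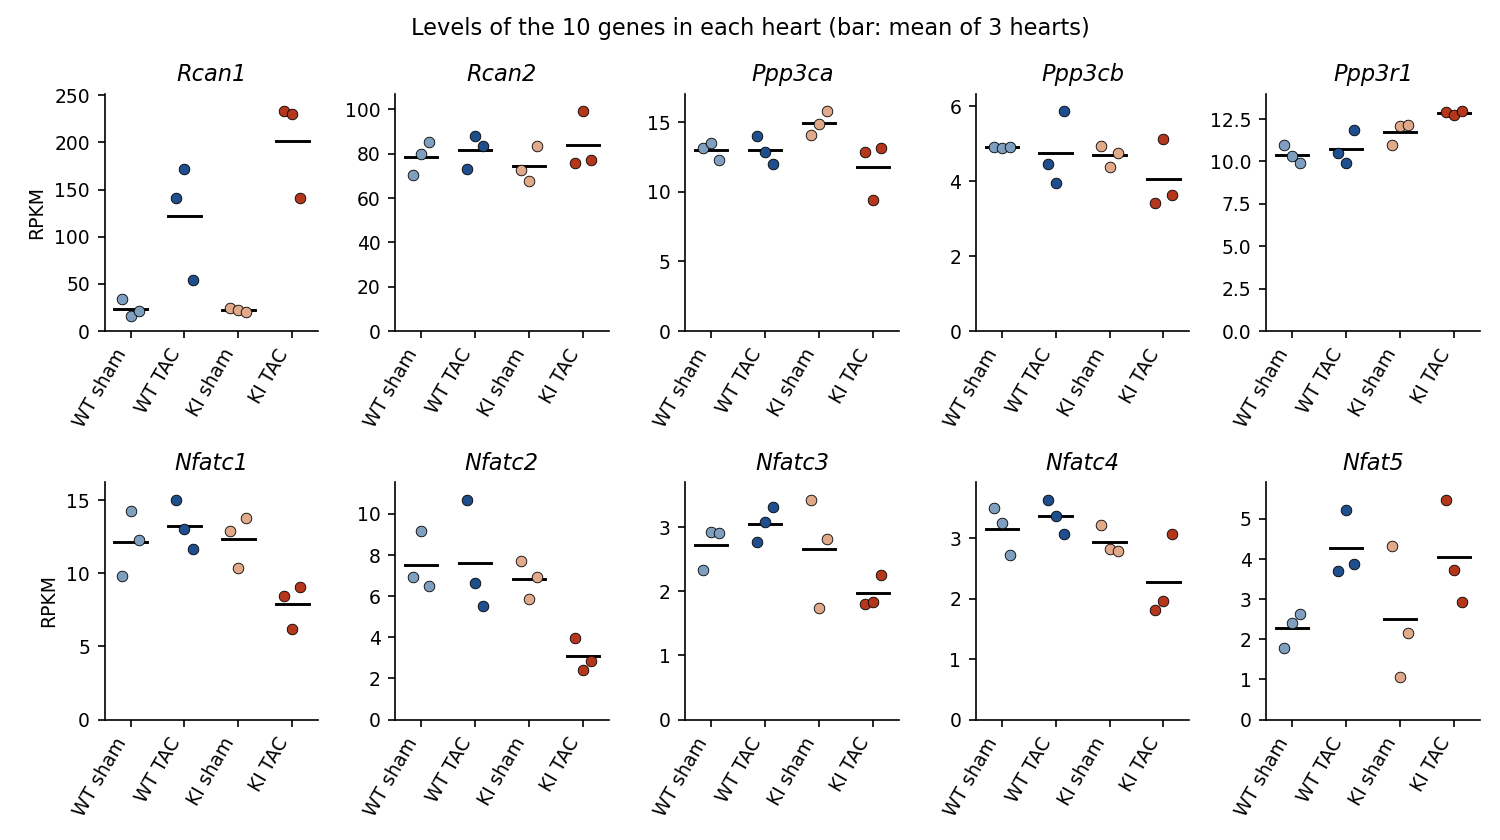
RPKM of each of the 10 genes (vertical axes from 0, scaled per gene) in the 12 hearts by group, with a bar at the mean of 3 hearts. Rcan1 lies between 16.0 and 34.3 RPKM in the 6 sham hearts and between 53.9 and 233 RPKM in the 6 TAC hearts, while Nfatc1 and Nfatc2 are lowest in the 3 KI TAC hearts.

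Under load the Rcan1 level of KI hearts overlapped that of WT hearts, since KI TAC 7 (141 RPKM) lay below WT TAC 9 (172 RPKM). The difference was 0.84 on the log2 scale (95% interval 0.026 to 1.65, unadjusted p = 0.0439 and adjusted p = 0.154 in limma), short of the threshold. Without WT TAC 10 it was 0.33 with an adjusted p of 0.513 in limma, so that its size rested on that heart. The interaction of genotype and surgery, which compares the sizes of the responses, was 0.85 (interval −0.30 to 1.998, adjusted p = 0.460 in limma), and it was 0.35 without WT TAC 10 and 0.56 without WT sham 1. After the sham operation the genotypes had Rcan1 levels of 23.7 ± 9.51 (SD, n = 3) and 22.4 ± 1.92 RPKM, a log2 difference of −0.013 with an interval of −0.82 to 0.80.

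Rcan2, the second restraining protein of the family, gave no such response. Its levels were 70.6, 80.1 and 85.2 RPKM in WT sham 1, 2 and 3, and 73.1, 88.0 and 83.7 RPKM in WT TAC 7, 9 and 10. In the KI groups they were 72.9, 67.6 and 83.7 RPKM (sham 1, 2 and 3) and 76.0, 99.3 and 77.0 RPKM (TAC 5, 6 and 7). All 4 groups overlapped. The log2 change with TAC was 0.052 (interval −0.34 to 0.44, adjusted p = 0.881 in limma) in WT and 0.16 (−0.23 to 0.55, adjusted p = 0.545) in KI hearts, intervals that leave out changes of the size seen for Rcan1.

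Ratios within a heart do not depend on how libraries are scaled to each other. Rcan1 over Rcan2 had a geometric mean of 0.288 in WT sham and 1.34 in WT TAC hearts, and of 0.301 in KI sham and 2.35 in KI TAC hearts. It was above 1 in 5 of the 6 TAC hearts, and 0.644 in WT TAC 10. Rcan1 made up 23.0% ± 8.55 (SD, n = 3) of the summed RPKM of both genes in WT sham hearts, 57.0% ± 15.5 in WT TAC, 23.2% ± 3.11 in KI sham and 70.0% ± 5.37 in KI TAC. Relative to Ppp3ca plus Ppp3cb, Rcan1 RNA stood at 1.26 in WT sham, 6.17 in WT TAC, 1.14 in KI sham and 12.4 in KI TAC hearts (geometric means). Sham and TAC hearts did not overlap in either ratio in either genotype, and an exact two-sided permutation test gave p = 0.1 in each of these 4 comparisons, the smallest p that 3 against 3 hearts allows (adjusted p = 0.333 over the 20 ratio comparisons made, 5 ratios in 4 comparisons). Between the TAC groups the ratio to Ppp3ca plus Ppp3cb overlapped (2.01-fold higher in KI, exact permutation p = 0.2). Rcan2 over Ppp3ca plus Ppp3cb did not overlap between KI sham (geometric mean 3.80) and KI TAC hearts (5.27, exact permutation p = 0.1), and overlapped in WT hearts (4.39 and 4.59, exact permutation p = 0.7). Ppp3ca over Ppp3cb did not overlap between KI sham (geometric mean 3.17) and WT sham hearts (2.64, exact permutation p = 0.1). With Ppp3cc, the third catalytic subunit gene, added to the denominator (an alternative chosen after the values were seen), Rcan1 stood at 0.884 in WT sham, 4.23 in WT TAC, 0.835 in KI sham and 8.05 in KI TAC hearts, and sham and TAC hearts again did not overlap in either genotype. Rcan2 over the 3 genes overlapped between KI sham (2.78) and KI TAC hearts (3.42). The groups did not overlap in 6 of the 20 ratio comparisons, and none of the 20 passed after adjustment.

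**Figure D2:**
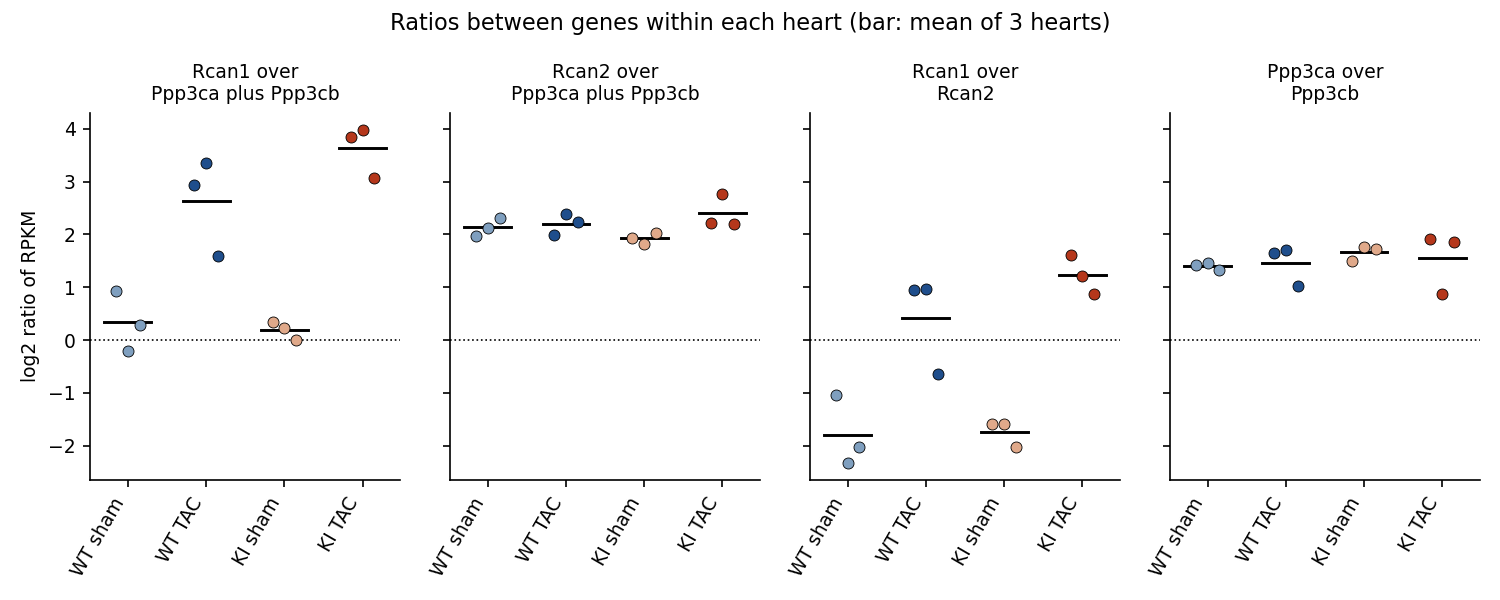
Log2 ratios of RPKM between genes of the pathway within each of the 12 hearts, by group, with a bar at the mean of 3 hearts and a dotted line at 0. Rcan1 over Ppp3ca plus Ppp3cb moves from geometric means of 1.26 and 1.14 in sham hearts to 6.17 (WT) and 12.4 (KI) in TAC hearts, while Ppp3ca over Ppp3cb overlaps between sham and TAC hearts.

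The calcineurin subunits showed little response in WT hearts. Ppp3ca, the main catalytic subunit by level, was at 13.1, 13.5 and 12.3 RPKM in WT sham 1, 2 and 3, at 14, 12.9 and 12 RPKM in WT TAC 7, 9 and 10, at 14.1, 14.8 and 15.8 RPKM in KI sham 1, 2 and 3, and at 12.9, 9.41 and 13.1 RPKM in KI TAC 5, 6 and 7. The 3 KI sham hearts were the highest 3 of the 12, with WT TAC 7 next. The log2 change with TAC was −0.00038 in WT (interval −0.35 to 0.35) and −0.32 in KI (−0.67 to 0.022, adjusted p = 0.161 in limma), where sham and TAC did not overlap. Without KI TAC 6 the change in KI hearts was −0.18. Ppp3cb, a second catalytic subunit, was at 4.92, 4.88 and 4.92 RPKM in WT sham 1, 2 and 3, at 4.47, 3.95 and 5.88 RPKM in WT TAC 7, 9 and 10, at 4.96, 4.39 and 4.77 RPKM in KI sham 1, 2 and 3, and at 3.41, 5.13 and 3.64 RPKM in KI TAC 5, 6 and 7. Its groups overlapped throughout, with log2 changes of −0.048 in WT and −0.19 in KI (adjusted p = 0.446 in limma). The regulatory subunit Ppp3r1 was at 11.0, 10.3 and 9.89 RPKM in WT sham 1, 2 and 3, at 10.5, 9.91 and 11.8 RPKM in WT TAC 7, 9 and 10, at 11.0, 12.1 and 12.2 RPKM in KI sham 1, 2 and 3, and at 12.9, 12.7 and 13 RPKM in KI TAC 5, 6 and 7. Its KI TAC values were the highest of the series and overlapped no other group, yet the differences were small, 0.12 on the log2 scale from KI sham (interval −0.18 to 0.43) and 0.24 from WT TAC (−0.063 to 0.55, adjusted p = 0.265 in limma).

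Summed over Ppp3ca and Ppp3cb, the level was 17.9 ± 0.605 RPKM (SD, n = 3) in WT sham, 17.7 ± 0.838 in WT TAC, 19.6 ± 0.827 in KI sham and 15.9 ± 1.18 in KI TAC hearts. Each KI sham heart lay above each other heart of the series on this sum, and each KI TAC heart below. Ppp3ca made up 72.5%, 73.2%, 76.0% and 74.0% of the sum in the same order of groups. Ppp3cc, which was not one of the 10 genes and stood in the list of partners, was more abundant than Ppp3cb on average, at 7.67 ± 0.780 RPKM in WT sham, 8.11 ± 1.23 in WT TAC, 7.20 ± 0.571 in KI sham and 8.52 ± 1.18 in KI TAC hearts, with a log2 change of 0.21 in KI hearts (adjusted p = 0.370 in limma). With Ppp3cc in the sum, KI sham hearts had 26.8 ± 0.977 RPKM and KI TAC hearts 24.4 ± 0.946 RPKM. These groups still did not overlap each other, but both overlapped the WT hearts (23.99 to 27.4 RPKM). The ratio of Ppp3ca to Ppp3cb ran from 1.83 in KI TAC 6 to 3.77 in KI TAC 5, so that the KI TAC hearts spanned the whole range of the series. Ppp3cb overlaps the antisense gene 1810062O18Rik (mean 0.531 RPKM) and Ppp3r1 the gene Wdr92 on the same strand (1.5 RPKM). The libraries mark strand, the strand setting of the counting is not given in the sources used here, and reads from these pairs may be shared.

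Nfatc2 RNA fell with TAC in KI hearts, and Nfatc1 RNA fell with it. Nfatc2, best known from lymphocytes and also present in the heart, was at 6.91, 9.18 and 6.50 RPKM in WT sham 1, 2 and 3 and at 10.7, 6.66 and 5.53 RPKM in WT TAC 7, 9 and 10. The KI sham hearts 1, 2 and 3 had 7.72, 5.84 and 6.94 RPKM, and KI TAC 5, 6 and 7 had 3.95, 2.41 and 2.85 RPKM. The KI TAC hearts were the lowest 3 of the 12. The log2 change in KI hearts was −0.96 ± 0.22 (SE, adjusted p = 0.00793 in limma), a ratio of means of 0.449. With 10578 bases of exon Nfatc2 is in the class of long genes, and the part of length in its values was not tested. In WT hearts it was −0.016 with an interval of −0.50 to 0.46. Against WT TAC, KI TAC hearts were lower by a log2 difference of −1.06 ± 0.22 (adjusted p = 0.0138 in limma), a ratio of 0.402. That call was lost without WT TAC 7 (log2 difference −0.82, adjusted p = 0.0811) and without KI TAC 6 (−0.94, adjusted p = 0.0742), and with the 2 TAC groups fitted alone (adjusted p = 0.0622).

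Nfatc1, which is known for its part in endocardial and valve development, was at 9.81, 14.3 and 12.3 RPKM in WT sham 1, 2 and 3 and at 15.0, 13.1 and 11.6 RPKM in WT TAC 7, 9 and 10. KI sham 1, 2 and 3 had 12.9, 10.3 and 13.7 RPKM, and KI TAC 5, 6 and 7 had 8.44, 6.16 and 9.08 RPKM. As with Nfatc2, the KI TAC hearts were the lowest 3 of the 12, with the next at 9.81 RPKM. The log2 change with TAC was −0.59 ± 0.19 (adjusted p = 0.0408 in limma) in KI and 0.13 (interval −0.29 to 0.54) in WT hearts, and KI TAC hearts lay −0.69 ± 0.19 from WT TAC hearts (adjusted p = 0.0378). Both calls stood near the threshold. The first was lost on leaving out any of WT sham 3, WT TAC 7, KI sham 1, KI sham 3, KI TAC 5 or KI TAC 6, and the second without WT sham 3, WT TAC 7, WT TAC 9, KI sham 3, KI TAC 5 or KI TAC 6, with adjusted p of 0.0315 to 0.155 and 0.0257 to 0.161 over all the hearts left out in turn. Scaling hearts by median ratios also ended both calls (adjusted p = 0.114 and 0.0955 in limma), and the direction held in each of these fits.

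The median gene also lay lower in KI TAC hearts. Over all 11240 genes the median log2 change was −0.10 in KI TAC against KI sham and −0.12 in KI TAC against WT TAC, and it was near 0 once hearts were scaled by median ratios. Relative to that median, Nfatc2 changed by −0.85 and −0.93 and Nfatc1 by −0.49 and −0.57 in these 2 comparisons. The interaction, which asks whether the response of KI hearts differed from that of WT hearts, was −0.94 for Nfatc2 (interval −1.62 to −0.26, unadjusted p = 0.0102, adjusted p = 0.219 in limma) and −0.72 for Nfatc1 (−1.30 to −0.13, unadjusted p = 0.0202, adjusted p = 0.257). Of the 10 genes, 0 passed the adjusted threshold for the interaction in limma and 0 with limma-voom on recovered reads, 2 had an unadjusted p under 0.05, and the share over all genes was 0.0%, with 1668 genes at an unadjusted p under 0.05. A difference in response between the genotypes is therefore not called for any of the 10 genes.

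Nfatc3 and Nfatc4, which act in cardiomyocyte growth, were less abundant and passed no adjusted threshold. Nfatc3 was at 2.34, 2.93 and 2.91 RPKM in WT sham 1, 2 and 3, at 2.78, 3.07 and 3.32 RPKM in WT TAC 7, 9 and 10, at 3.43, 1.74 and 2.82 RPKM in KI sham 1, 2 and 3, and at 1.81, 1.84 and 2.26 RPKM in KI TAC 5, 6 and 7. Nfatc4 was at 3.50, 3.25 and 2.72 RPKM in WT sham 1, 2 and 3, at 3.64, 3.37 and 3.08 RPKM in WT TAC 7, 9 and 10, at 3.22, 2.83 and 2.80 RPKM in KI sham 1, 2 and 3, and at 1.81, 1.96 and 3.07 RPKM in KI TAC 5, 6 and 7. For both genes the KI TAC hearts lay below all WT TAC hearts, for Nfatc4 at 3.07 against 3.08 RPKM at the closest. The log2 difference of KI TAC from WT TAC was −0.45 for Nfatc3 (interval −0.82 to −0.082, adjusted p = 0.0995 in limma) and −0.43 for Nfatc4 (−0.77 to −0.088, adjusted p = 0.0923). Within KI hearts, sham and TAC overlapped for both, since KI sham 2 was the lowest of all hearts for Nfatc3 (1.74 RPKM) and KI TAC 7 lay inside the sham range for Nfatc4. The ratio of Nfatc3 to Nfatc4 stayed between geometric means of 0.863 and 0.908 in the 4 groups. Nfatc3 overlaps Esrp2 on the opposite strand (mean 1.07 RPKM).

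Summed over Nfatc1 to Nfatc4, the calcineurin-regulated NFAT RNAs came to 25.5 ± 3.68 RPKM (SD, n = 3) in WT sham, 27.3 ± 4.40 in WT TAC, 24.8 ± 3.52 in KI sham and 15.2 ± 2.55 in KI TAC hearts. The 3 KI TAC hearts (12.4 to 17.3 RPKM) lay below the other 9 (20.7 to 32.1 RPKM). The sums were formed after the values of the single genes were known and were not tested. Nfatc1 and Nfatc2 made up 72.0% to 77.4% of the sum in the 4 groups. In KI TAC against WT TAC, the leukocyte marker sum was lower (83.7 to 105 against 137 to 195 RPKM, median log2 change −0.69 over 6 markers tested, 2 of them lower in the test) and the fibroblast markers had a median change of −0.71 (92.2 to 168 against 134 to 609.6 RPKM). Lyz2 was the largest part of the leukocyte sum (mean 63.4 RPKM in KI TAC and 114 in WT TAC). Itgam (1.23 against 1.13 RPKM) and S100a8 (3.68 against 1.80 RPKM) had higher means in KI TAC hearts, and the other leukocyte markers lower ones. In KI TAC against KI sham, the leukocyte sum was 83.7 to 105 against 71.2 to 96.4 RPKM, with a median change of 0.37 and 2 of 6 markers higher and 1 lower in the test, and the fibroblast markers had a median change of −0.36, with 1 of 6 lower in the test. The endothelial sum was 251 to 286 RPKM in KI TAC, 249 to 303 in WT TAC and 262 to 329.7 in KI sham hearts. Smooth muscle and pericyte markers (6 genes) summed to 128 to 158 RPKM in KI TAC, 155.5 to 172 in WT TAC and 127 to 175 in KI sham hearts. Their median change was −0.20 in KI TAC against WT TAC, with 1 of 6 lower in the test, and 0.012 in KI TAC against KI sham. The part of these markers in the NFAT levels was not tested.

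**Figure D3:**
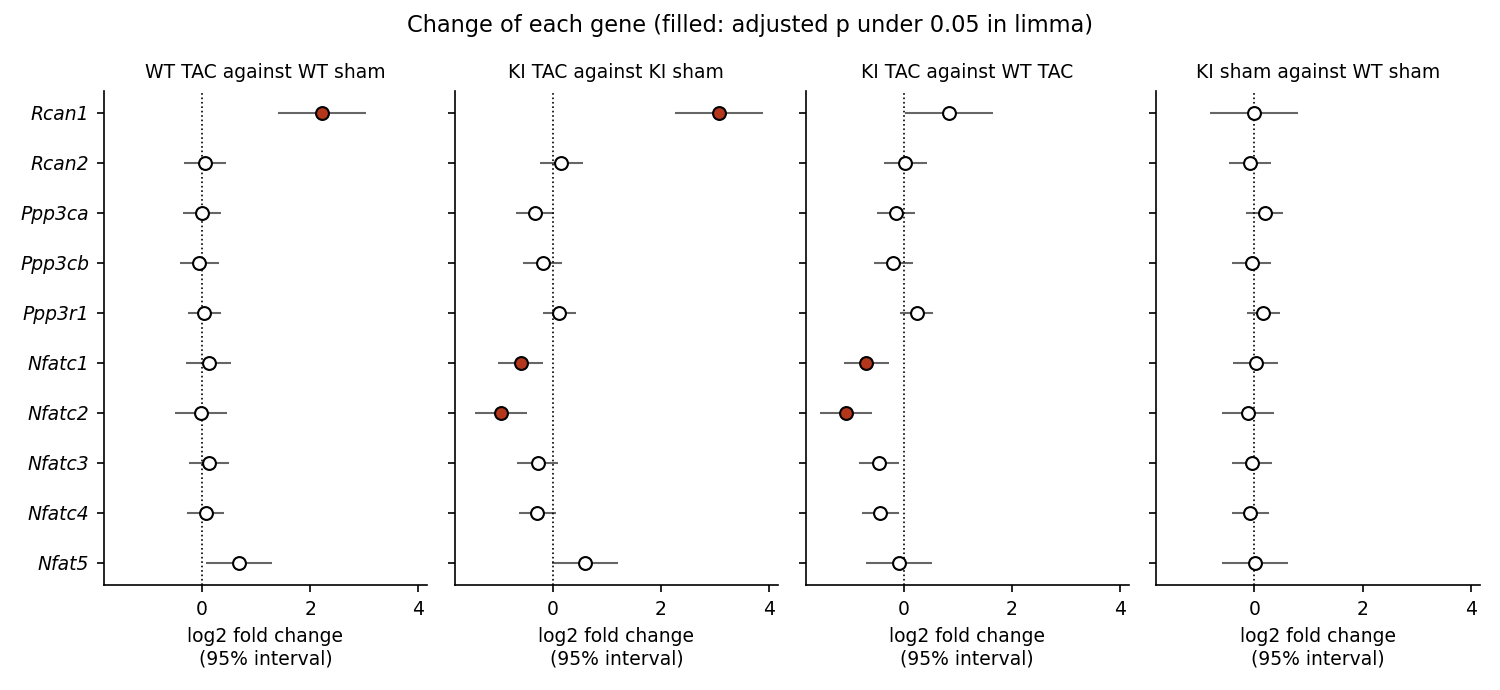
Log2 fold changes of the 10 genes with 95% intervals from limma in 4 comparisons, filled where the adjusted p is under 0.05 and with a dotted line at 0. Rcan1 is at 2.23 (WT) and 3.08 (KI) with TAC, Nfatc2 at −0.96 and Nfatc1 at −0.59 in KI hearts with TAC, and no point is filled in the sham comparison.

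Nfat5 passed the adjusted threshold in no comparison, with its largest log2 change in WT hearts with TAC. It was at 1.77, 2.41 and 2.63 RPKM in WT sham 1, 2 and 3, at 3.70, 5.22 and 3.88 RPKM in WT TAC 7, 9 and 10, at 4.32, 1.07 and 2.16 RPKM in KI sham 1, 2 and 3, and at 5.48, 3.72 and 2.93 RPKM in KI TAC 5, 6 and 7. The WT groups did not overlap, and the KI groups overlapped through KI sham 1. The log2 change was 0.69 (interval 0.076 to 1.30, adjusted p = 0.134 in limma) in WT and 0.60 (−0.013 to 1.21, adjusted p = 0.144) in KI hearts. Without KI sham 1 the change in KI hearts was 0.95 with an adjusted p of 0.0183 in limma, and without KI sham 2 it was 0.27 with an adjusted p of 0.491. Nfat5 has 18378 bases of exon, the longest of the 10 genes, and its lowest heart, KI sham 2, was also the one in which long genes as a group lay lowest (−0.227). KI sham 1, its highest sham heart, stood at 0.152 on that measure. Their part in the Nfat5 values was not tested.

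Across the 10 genes, 3 passed the test in KI TAC against KI sham (Rcan1 up, Nfatc1 and Nfatc2 down), against 23.3% of all genes tested, and 5 did not overlap, against 38.3%. In KI TAC against WT TAC, 2 passed (Nfatc1 and Nfatc2, both lower), against 11.0% of all genes, and 5 did not overlap, against 29.5%. None of the 10 passed in KI sham against WT sham, 0 in limma and 0 with limma-voom, with 0 at an unadjusted p under 0.05 and 0.0178% of all genes passing. There 1 of 10, Ppp3ca, did not overlap, against 3.27% of all genes, with a log2 difference of 0.19 (interval −0.16 to 0.53). The median log2 change of the 10 genes was 0.062 in WT TAC against WT sham (0.035 over all genes), −0.23 in KI TAC against KI sham (−0.10), −0.16 in KI TAC against WT TAC (−0.12) and −0.031 in KI sham against WT sham (0.0068). WT TAC hearts enter 2 of these comparisons and KI TAC hearts also 2, so the comparisons are not independent of each other.

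Around the core genes, the partners of calcineurin showed the calmodulin gene Calm2 rising in both genotypes. Calmodulin carries the calcium signal to the phosphatase. The Calm2 level was 15.0 ± 3.01 RPKM in WT sham, 26.6 ± 3.56 in WT TAC, 16.8 ± 2.23 in KI sham and 47.3 ± 8.35 in KI TAC hearts (mean ± SD, n = 3). Its log2 change was 0.79 in WT (adjusted p = 0.0194 in limma) and 1.44 in KI hearts (adjusted p = 0.000292), and KI TAC lay above WT TAC by 0.80 (adjusted p = 0.0238). Calm3 had the highest level of the calmodulin genes (128 to 148 RPKM on average in the 4 groups), and it did not pass the test in these comparisons. Of 19 listed partners 15 were tested. The share of all genes past the threshold was 11.6% with TAC in WT hearts, 23.3% in KI hearts and 11.0% between the TAC groups, and the counts of each list stand against these shares. Of the partners, 1 rose and none fell in WT hearts (6.67% of 15), and in KI hearts 3 rose (Lmcd1, Calm2 and Ppia, the cyclophilin bound by cyclosporin) and 1 fell (Akap6, a scaffold at the nuclear envelope that binds calcineurin), together 26.7%. Lmcd1, a LIM protein of the heart that acts with calcineurin, went from 32.8 ± 6.60 to 451 ± 401 RPKM in KI hearts (log2 change 3.24, adjusted p = 0.00671 in limma). Akap6 went from 16.1 ± 4.81 to 7.13 ± 0.559 RPKM (−1.03, adjusted p = 0.00676). Between the TAC groups Akap6 (−1.35) and Cabin1, an inhibitor of calcineurin (−0.65), were lower in KI hearts and Calm2 higher, 1 higher and 2 lower of 15. Over the 15, the median was 0.068 with TAC in WT and 0.21 in KI, and −0.024 between the TAC groups.

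The kinases that return NFAT to the cytoplasm and its transport factors were tested for 15 of 16 listed genes. Dyrk1b, one of the kinases that phosphorylate NFAT, fell in both genotypes, from 26.7 ± 5.96 to 14.9 ± 1.64 RPKM in WT (log2 change −0.78, adjusted p = 0.0144 in limma) and from 30.2 ± 0.724 to 10.6 ± 1.15 RPKM in KI hearts (−1.43, adjusted p = 0.000197). It was the only gene of the list past the threshold in WT hearts (6.67%, against 11.6% of all genes). In KI hearts Mapk14, the p38 kinase, also fell (−0.75) and Csnk1d, a casein kinase 1, rose (0.76), 1 up and 2 down of 15 (20%, against 23.3% of all genes). With hearts scaled by median ratios the count was 6 of 15 in KI hearts and 2 of 15 in WT hearts. Under that scaling 2786 and 1469 of all 11240 genes passed in these comparisons. Between the TAC groups 0 of the 15 passed in limma and 1 with limma-voom on recovered reads, with 5 at an unadjusted p under 0.05 (30.3% of all genes had such a p in this comparison). The list's median was 0.32 in WT, −0.039 in KI and −0.12 between the TAC groups.

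All 11 listed transcription factors that act with NFAT were tested. In WT hearts 2 rose, the AP-1 members Junb (log2 change 1.80) and Fosl2 (1.51). In KI hearts 4 rose, namely Fos (4.08), Egr1 (3.58), Junb (2.72) and Fosl2 (1.60), and none fell in either genotype. These are 18.2% of the list in WT and 36.4% in KI hearts, against 11.6% and 23.3% of all genes. Junb, for one, went from 15.1 ± 7.34 to 54.5 ± 19.7 RPKM in WT and from 14.3 ± 2.62 to 102.9 ± 38.8 RPKM in KI hearts. The spread of Fos in KI TAC hearts was wide (76.8 ± 107 RPKM). Gata4, the cardiac GATA factor that binds Nfatc4, was at 125 ± 28.8 RPKM in WT TAC and 58.4 ± 27.3 RPKM in KI TAC hearts, a log2 difference of −1.15 (adjusted p = 0.0276 in limma), the only one of the 11 past the threshold there. The list's median change was 0.30 in WT, −0.20 in KI hearts and −0.21 between the TAC groups.

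Among genes known as NFAT-responsive in muscle or immune cells, 12 of 15 were tested. In WT hearts 6 rose (Nppb, Ccl2, Acta1, Myh7, Egr3 and Ptgs2) and none fell, and in KI hearts 7 rose (Nppb, Ccl2, Adamts1, Cxcl1, Egr3, Ptgs2 and Acta1) and 1 fell. These are 50% and 66.7% of the 12, against 11.6% and 23.3% of all genes. Nppb, which encodes B-type natriuretic peptide, went from 154 ± 123 to 1211 ± 269 RPKM in WT (log2 change 3.26, adjusted p = 0.00110 in limma) and from 111 ± 45.9 to 1631 ± 547 RPKM in KI hearts (3.90, adjusted p = 0.000181). Myh7, the slow myosin heavy chain, stood at 250 ± 112 RPKM in WT TAC and 33.9 ± 12.9 RPKM in KI TAC hearts, a log2 difference of −2.83 (adjusted p = 0.00492 in limma). In sham hearts Myh7 was at 75.5 ± 60.2 RPKM in WT and 31.1 ± 3.98 RPKM in KI (log2 difference −0.99, unadjusted p = 0.0421 in limma), and its interaction was −1.84 (adjusted p = 0.220 in limma). Adamts1, a secreted protease, Cxcl1, a neutrophil chemokine, and Ptgs2, the inducible cyclooxygenase, were higher in KI TAC hearts (2.04, 1.28 and 0.75), making 3 higher and 2 lower of 12. The median change was 1.26 in WT and 1.72 in KI hearts and 0.34 between the TAC groups. Many of these genes also answer to other pathways. The list was written from general knowledge, with earlier results of these data known. Its shares therefore describe the list and do not test a response to NFAT. Ccl2, Egr3, Ptgs2 and Cxcl1 were under 1 RPKM in every sham heart and were tested only through their levels in TAC hearts.

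The osmotic targets of Nfat5 were tested for 6 of 8 listed genes. Slc38a2, an amino acid transporter, rose from 20.8 ± 2.69 to 67.2 ± 19.1 RPKM in WT (log2 change 1.61, adjusted p = 0.00268 in limma) and from 25.7 ± 11.1 to 77.8 ± 10.7 RPKM in KI hearts (1.63, adjusted p = 0.00114). Slc6a6, the taurine transporter, rose by 1.31 and 1.04, and S100a4 by 1.47 and 0.83. Akr1b3, the aldose reductase that makes sorbitol, fell in WT hearts (−0.72, adjusted p = 0.0290 in limma), and Hspa1b, a heat shock protein, rose in KI hearts (4.97) with a wide spread (592 ± 952 RPKM in KI TAC). In all, 3 rose and 1 fell in WT hearts, 4 rose and none fell in KI hearts (66.7% of 6 in each, against 11.6% and 23.3% of all genes), and 0 of 6 passed between the TAC groups in limma and 0 with limma-voom, with 3 at an unadjusted p under 0.05 (30.3% of all genes). The median change was 1.31, 0.93 and 0.066. S100a4 was under 1 RPKM in every sham heart and was tested only through its levels in TAC hearts, while Slc5a3 and Slc6a12 fell to the filter. This list too was chosen with earlier results of these data known, so its shares are a description. In KI sham against WT sham and in the interaction, 0 genes of the 5 lists passed in limma and 0 with limma-voom. At an unadjusted p under 0.05 there was 1 gene of the lists in the sham comparison (Myh7, with 0.329% of all genes), while in the interaction (14.8% of all genes) there were 3 of 15 partners, 3 of 15 kinases or transport factors, 2 of 11 transcription factors, 5 of 12 NFAT-responsive genes and 0 of 6 Nfat5 targets.

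**Figure D4:**
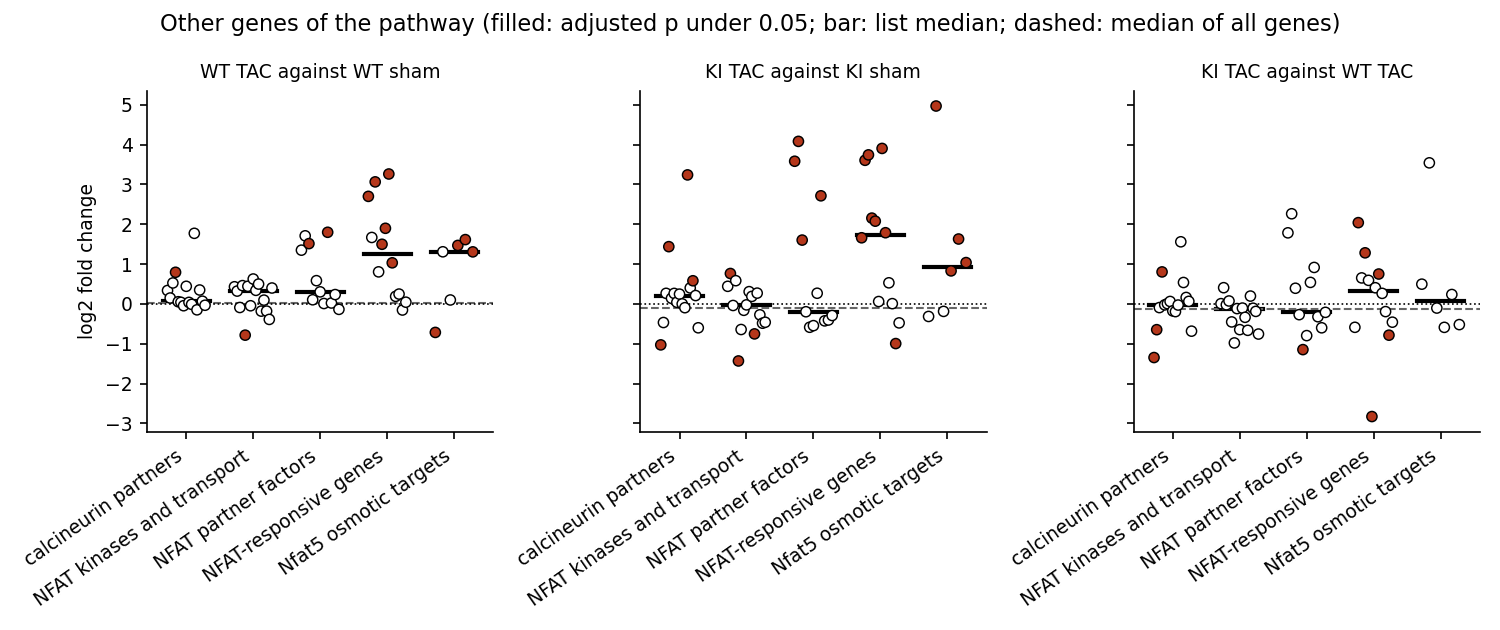
Log2 fold changes of the tested genes of 5 lists around the pathway in 3 comparisons, filled where the adjusted p is under 0.05 in limma, with a bar at each list's median and a dashed line at the median of all genes. The NFAT-responsive genes lie highest in WT hearts together with the Nfat5 targets (medians 1.26 and 1.31), and in KI hearts their median is 1.72.

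The genes whose levels followed those of the core genes most closely over the 12 hearts are given as a description, since the points share groups and libraries. With Rcan1, on log2(RPKM + 1), these were Tnfrsf12a, the receptor of the cytokine TWEAK (Pearson's r 0.989, 10.4 to 24.9 RPKM in sham, 59.1 to 135 in WT TAC and 181 to 327 in KI TAC hearts), Ppme1, a methylesterase of phosphatase 2A (0.988), Gm13889 (0.986), Junb (0.983) and Rrp12, a ribosome biogenesis factor (0.982). With Nfatc1 they were the transcription factor Nfic (0.972), Zdhhc8 (0.969) and Arhgef17 (0.964), and with Nfatc2 they were Lrig1 (0.966), Mfhas1 (0.962) and Rgma (0.958). Nfic ran from 41.7 to 79.0 RPKM in KI TAC hearts and from 79.9 to 166.9 RPKM in all others. Among the 10 genes, Nfatc1 and Nfatc2 were the pair most alike (r 0.905).

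**Figure D5:**
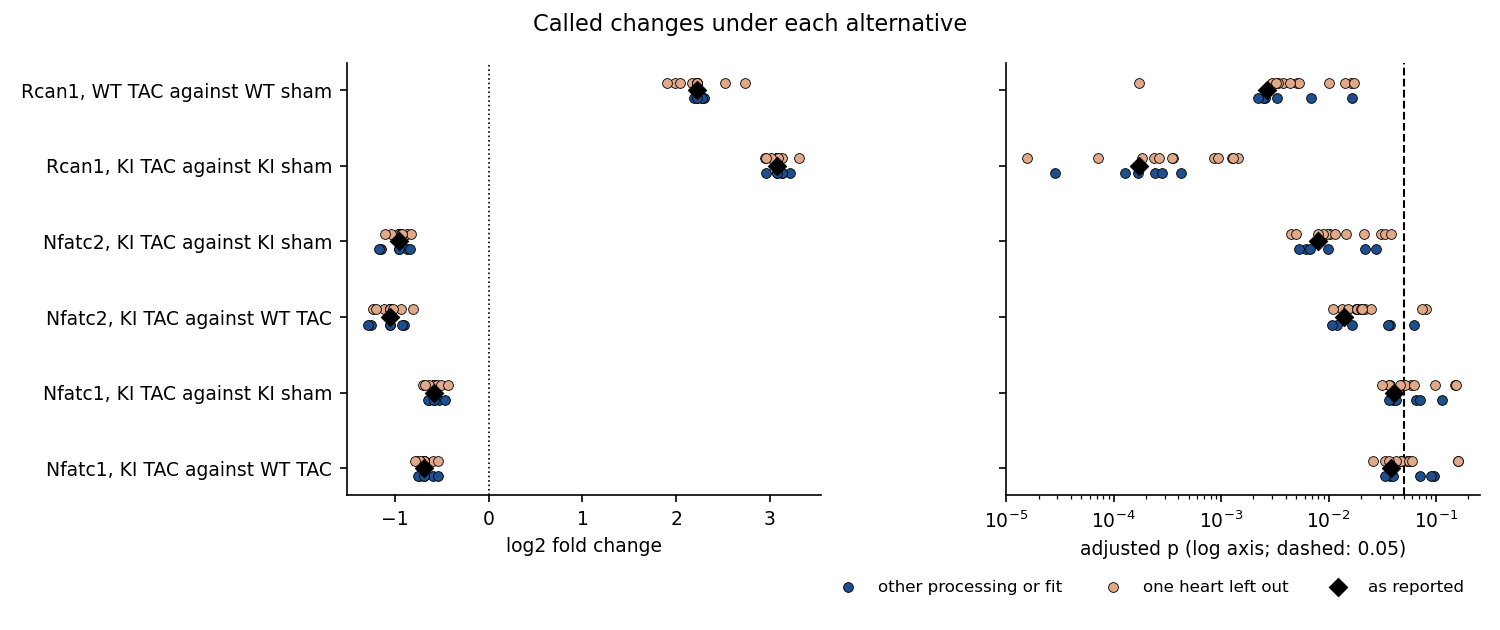
Log2 fold changes (left) and adjusted p (right, log axis, dashed line at 0.05) of the 6 called changes as reported (diamonds), under other processing or fits (blue) and with 1 heart left out (orange). The Rcan1 points stay left of the line in both genotypes, as do those of Nfatc2 with TAC in KI hearts, with adjusted p of at most 0.0384, while those of Nfatc1 lie on both sides of it.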

How the data were processed

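The libraries were made from poly(A) RNA with a kit that marks strand and were sequenced as single reads of 75 bases. Per the submitters' processing notes, reads were processed with Trimmomatic 0.39, HISAT2 2.2.1 (GRCm38) and HTSeq 0.6.1, with edgeR 3.18.1 and limma 3.32.10 in R 4.1.1. The authors deposited 1 table of normalized values for 13552 genes, whose unit is RPKM as judged from the values: multiplied by exon lengths of GENCODE M21 (13546 genes), 97.2% to 98.0% of low values were whole multiples of 1 read (tolerance 0.05 reads, at most 11.1% with a wrong step), which also gave the depth. Intervals cover the spread between 3 mice per group.

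The deposited RPKM were put on the log2(RPKM + 1) scale. Genes reaching 1 RPKM in 3 or more hearts were kept. All 4 groups (12 hearts) entered 1 linear model in limma 3.58.1 (R 4.3.3, moderated with an intensity trend), with Benjamini-Hochberg adjusted p under 0.05 over all genes as the threshold. A fold change on this scale understates the change of low genes. A count test had been intended for a table of counts. Ratios were compared with exact two-sided permutation tests. The members, lists and tests were chosen with earlier results of these data known. Named in the text are all 10 genes, list members past the threshold (at most 5 by size, more where a count is spelled out) or most abundant, the 5 genes most like Rcan1 and the 3 most like Nfatc1 and Nfatc2, and markers. The sums over subunits and NFAT genes, and Ppp3cc in them, were added after the values were seen. Some list members are counted and not reported here by name. The fit was tested on simulated data. Alternatives were another pseudocount, no filter, quantile and median-ratio scaling, limma-voom on recovered reads, the 2 groups alone, a threshold of 0.10 and leaving out each heart. Whether same-numbered sham hearts form pairs could not be told from the values. Promoters came from RefSeq on GRCm38.p6, with windows listed for 8 of the 10 genes. Those on chromosome 18, where Nfatc1 lies, were left out of that listing. Python 3.11.15, numpy 2.4.6, pandas 2.3.3, scipy 1.17.1 and matplotlib 3.10.9 were used.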

Additional observations from a re-analysis of the deposited data

How the results depend on the processing

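Over 950 alternatives for the 10 genes in 5 comparisons, 881 kept direction and side of the threshold, 21 lost a call, 6 gained one and 42 changed sign, the last only among changes that were not called. Rcan1 kept its call in both genotypes, and Nfatc2 kept its call in KI TAC against KI sham, under each of the 18 alternatives for those changes (adjusted p in limma of at most 0.0173, 0.00145 and 0.0384). Nfatc1 lost its call in KI TAC against KI sham with quantile normalization (adjusted p = 0.0656 in limma), median-ratio scaling (0.114) and the 2 groups alone (0.0711), and in KI TAC against WT TAC with the same settings (0.0717, 0.0955 and 0.0891). Nfatc2 lost its call in KI TAC against WT TAC with the 2 groups alone (0.0622). The causes were not tested.

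The number of the 10 genes called was 2 in WT TAC against WT sham with the 2 groups alone (Nfat5 added, adjusted p = 0.0388). In KI TAC against WT TAC it was 1 with quantile normalization, 1 with median-ratio scaling, 0 with the 2 groups alone and 4 at a threshold of 0.10 (Nfatc3 and Nfatc4 added), and 0 to 3 without 1 heart at a time. Nfatc4 passed in both comparisons of KI TAC hearts without KI TAC 7 (adjusted p = 0.0386 and 0.0183). Median-ratio scaling called 2 of the NFAT kinases and transport factors in WT and 6 in KI hearts with TAC, and 1 Nfat5 target in KI TAC against WT TAC, where no filter also gave 1. Of all 11240 genes, median-ratio scaling called 1469 in WT and 2786 in KI hearts with TAC, and 1247 in KI TAC against WT TAC. With no filter, 1304 of 13552 genes were called in KI TAC against WT TAC.

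Over all genes, the calls in KI TAC against WT TAC numbered 216 with the 2 groups alone and 2293 at a threshold of 0.10, against 1242. At 0.10 they numbered 2064 in WT TAC against WT sham (1299 at 0.05) and 50 in the interaction (0 at 0.05). In KI sham against WT sham they numbered 5 with the 2 groups alone and 3 at 0.10 or with no filter, against 2.

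Small changes that were not called took the other sign as follows. With quantile normalization KI TAC against WT TAC gave −0.014 for Rcan2 and 0.063 for Nfat5, KI sham against WT sham gave −0.0095 for Nfat5, and the interaction gave 0.072 for Nfat5. With median-ratio scaling KI TAC against WT TAC gave 0.048 for Nfat5 and 0.0093 for Ppp3ca, and the interaction 0.048 for Nfat5. With limma-voom WT TAC against WT sham gave 0.0037 for Ppp3ca and KI sham against WT sham −0.059 for Nfat5, which was −0.045 with a pseudocount of 0.1. Without 1 heart at a time the log2 changes ran as follows. In WT TAC against WT sham they were Nfatc1 −0.0062 to 0.24, Nfatc2 −0.26 to 0.16, Nfatc4 −0.0055 to 0.13, Ppp3ca −0.054 to 0.0503, Ppp3cb −0.18 to 0.054, Ppp3r1 −0.024 to 0.094 and Rcan2 −0.023 to 0.13. In KI TAC against WT TAC they were Nfat5 −0.28 to 0.081, Ppp3ca −0.22 to 0.0060 and Rcan2 −0.088 to 0.10. In KI sham against WT sham they were Nfat5 −0.35 to 0.33, Nfatc1 −0.10 to 0.14, Nfatc2 −0.20 to 0.017, Nfatc3 −0.20 to 0.15 and Rcan1 −0.25 to 0.28. For the interaction they were Nfat5 −0.42 to 0.26 and Rcan2 −0.013 to 0.19.

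In the sham groups, which share mouse numbers 1 to 3, the deviations of same-numbered hearts had correlations of −0.22, −0.30 and 0.44. Those of differently numbered hearts ran from −0.35 to 0.43. With 3 hearts per group these values cannot tell whether same-numbered hearts share a source. With the number as a replicate block in a fit of the sham hearts alone, 0 of the 10 genes and 0 of all genes passed in KI sham against WT sham, against 0 and 5 in the fit of the same hearts without the block. The TAC groups share only number 7, so no such fit was possible for them.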
